A study of Mus musculus with 140 samples.

Results

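TDP-43 and m6A clusters on exons of long noncoding RNAs (lncRNAs) of the mouse brain are described here. Clusters whose midpoint lay in a lncRNA exon on the same strand, and in no protein-coding exon, were taken from the 70 immunoprecipitated libraries of the series, outside chromosomes X and Y. The 6 gene types counted as lncRNA were lincRNA, antisense, processed_transcript, sense_intronic, bidirectional_promoter_lncRNA and lncRNA, in GENCODE M21 on the mm10 build. There were 312865 such clusters among 12843202 listed clusters outside X and Y (2.44%) and 13239113 listed clusters in all. Of these, 79345 (25.4%) were enriched over input, which here means a deposited p of 0.001 or less. The TDP-43 libraries listed 46341 of them in the cortex and 38960 in the striatum, and the m6A libraries 83734 and 86839. A further 56991 came from the antisense experiment. Of the 9392 lncRNA genes outside X and Y, 4062 held at least 1 listed cluster and 1395 at least 1 enriched cluster.

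lncRNAs are transcripts without a conserved reading frame, and brain tissue expresses many of them at high levels. Some stay at nuclear bodies (Malat1, Neat1, Miat), some come from imprinted loci (Meg3, Rian and Mirg of the Dlk1-Dio3 domain, Peg13, Kcnq1ot1, Snhg14), and some host small RNAs (Gas5, Mir22hg). TDP-43 is an RNA-binding protein with a known preference for UG repeats, and N6-methyladenosine (m6A) is a base modification that is deposited co-transcriptionally, typically within GGACU-like sequences and often in long or last exons. Crosslinking and immunoprecipitation with sequencing (eCLIP) maps both: reads recovered with an antibody are piled into clusters, and each cluster is set against a size-matched input library.

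The libraries were made from cortex and striatum of 3-month-old R6/2 mice and nontransgenic (NT) mice of the matching cohort, 4 males and 4 females in each group, for TDP-43 and for m6A. R6/2 mice (B6CBA-Tg(HDexon1)62Gpb/3J) model Huntington's disease with a transgene that encodes the exon 1 fragment of human mutant huntingtin. TDP-43 was recovered from UV-crosslinked tissue powder, and m6A from extracted RNA enriched on poly-dT beads, so assay and RNA preparation cannot be told apart. In a separate experiment, C57Bl/6 males received 500 ug of an antisense oligonucleotide (ASO) to TDP-43 or PBS by intracerebroventricular injection at 5 weeks of age, and m6A was profiled 2 weeks later in tissue labelled cortex, in 3 mice each. One protocol field for that experiment names striatum instead.

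Libraries differed widely in yield. TDP-43 libraries held 4929 to 54932 enriched clusters, of which 86 to 482 lay on lncRNA exons. m6A libraries of R6/2 and NT mice held 56405 to 86910, of which 1453 to 2212 were on lncRNA exons. Reads are not part of the files used here, so the depth behind a cluster is unknown. Among the TDP-43 striatum libraries, 5 of 8 from R6/2 mice (male 4 and females 1 to 4) stood apart with 36.2% to 47.4% of their listed clusters in introns, and NT male 1 stood apart with the fewest enriched clusters, 4929. Because a cluster must beat its input in a library of limited yield, counts of enriched clusters depend on RNA level, binding or modification, and depth together. In bulk tissue, fewer cells of a type and less RNA per cell cannot be told apart.

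Some lncRNA sites were covered in every library of an assay. A stretch that enriched clusters of 4 or more libraries covered (of 16 per assay and region) is called a site, and the sequences shown were chosen among those present in the most of the 32 libraries of each assay, 1 per gene. All 7 sites shown, 3 for TDP-43 and 4 for m6A, were covered in 32 of 32 libraries. Sequences are the transcribed strand of mm10, 5′ to 3′, with T standing for the U of the RNA, and long sites are shown as the 200 bases around their most covered base. Capitals mark UGUGU, the motif of UG repeats, in the TDP-43 sites. In the m6A sites they mark the m6A motif GGACU. Both are tested below.
Rian, TDP-43, chr12:109645878-109645980, plus strand: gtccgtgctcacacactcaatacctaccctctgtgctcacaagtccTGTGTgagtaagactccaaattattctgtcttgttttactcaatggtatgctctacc
Gm2415, TDP-43, chr9:118926154-118926441, minus strand: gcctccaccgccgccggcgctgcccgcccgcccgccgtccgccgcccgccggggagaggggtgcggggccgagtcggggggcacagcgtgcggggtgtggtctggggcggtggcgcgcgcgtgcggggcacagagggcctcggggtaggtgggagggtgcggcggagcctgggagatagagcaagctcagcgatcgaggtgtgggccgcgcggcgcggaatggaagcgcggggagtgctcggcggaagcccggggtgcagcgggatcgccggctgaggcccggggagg
Peg13, TDP-43, chr15:72806918-72807154, minus strand: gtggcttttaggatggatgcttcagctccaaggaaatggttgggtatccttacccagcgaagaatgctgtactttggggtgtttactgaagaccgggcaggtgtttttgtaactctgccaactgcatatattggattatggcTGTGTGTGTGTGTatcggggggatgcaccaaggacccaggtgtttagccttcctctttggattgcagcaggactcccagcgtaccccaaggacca
Peg13, m6A, chr15:72806835-72807034, minus strand: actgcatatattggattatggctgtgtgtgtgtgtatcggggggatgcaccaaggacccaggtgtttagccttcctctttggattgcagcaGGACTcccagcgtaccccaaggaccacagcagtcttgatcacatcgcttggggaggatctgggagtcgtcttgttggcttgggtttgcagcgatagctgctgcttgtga
Malat1, m6A, chr19:5801194-5801393, minus strand: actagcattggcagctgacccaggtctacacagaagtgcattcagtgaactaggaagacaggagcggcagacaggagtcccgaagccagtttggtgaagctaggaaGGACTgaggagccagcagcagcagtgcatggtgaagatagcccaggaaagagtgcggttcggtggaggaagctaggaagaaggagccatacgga
Meg3, m6A, chr12:109558642-109558841, plus strand: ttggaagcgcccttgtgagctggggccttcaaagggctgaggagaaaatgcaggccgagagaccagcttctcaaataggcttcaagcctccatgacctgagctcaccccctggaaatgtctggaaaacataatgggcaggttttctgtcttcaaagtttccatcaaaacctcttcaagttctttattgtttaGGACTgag
Rian, m6A, chr12:109660796-109660995, plus strand: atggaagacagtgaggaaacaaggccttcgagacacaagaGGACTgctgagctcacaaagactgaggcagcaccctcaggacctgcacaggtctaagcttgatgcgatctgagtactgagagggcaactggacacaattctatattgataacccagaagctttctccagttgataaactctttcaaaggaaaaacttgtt

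Rian, a small nucleolar and micro RNA host of the imprinted Dlk1-Dio3 domain, carried its TDP-43 site in a 494-base exon with 1 UGUGU. This was exon 8 of 8 of the longest annotated transcript that held the site. Gm2415, an antisense-type gene, was the exception: its 288-base TDP-43 site, in a 2004-base exon at the start of the gene, held neither motif. Peg13, an imprinted single-exon brain transcript of 4725 bases, carried TDP-43 and m6A sites at the same place: the TDP-43 site (chr15:72806918-72807154) lay wholly within the 885-base m6A site (chr15:72806584-72807468). Its stretch of 5 overlapping UGUGU and its only GGACU in the window shown both lie in the m6A sequence above.

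The 4 m6A sites each held 1 GGACU in the 200 bases shown. The Malat1 site lay in its 6983-base exon and the Meg3 site in its 13087-base last exon. The Rian m6A site lay in the 971-base last exon of a transcript other than that of the Rian TDP-43 site. Enrichment over input was high at these sites: the highest log2 fold per library had a median of 4.68 in R6/2 striatum and 5.67 in R6/2 cortex at the Peg13 TDP-43 site, against 5.05 in NT striatum and 6.32 in NT cortex. At the Rian TDP-43 site the medians were 3.23 in R6/2 striatum and 3.36 in R6/2 cortex, against 3.19 in NT striatum and 3.28 in NT cortex. At the Meg3 m6A site they were 3.79 in R6/2 striatum and 3.70 in R6/2 cortex, against 3.77 in NT striatum and 3.73 in NT cortex. The libraries of both genotypes overlapped at each of these sites.

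TDP-43 clusters fell on lncRNA exons less often than m6A clusters did. In the R6/2 cortex, 1.03% ± 0.217 of enriched TDP-43 clusters were on lncRNA exons, against 2.56% ± 0.190 of enriched m6A clusters (SD, n = 8 each), a difference of -1.53 percentage points (exact permutation test within sex, two-sided p = 0.000408, adjusted p = 0.000984 over 41 library-level tests). In the NT cortex the shares were 0.873% ± 0.137 and 2.65% ± 0.124 (difference -1.77, exact p = 0.000408). Neither cortex comparison had overlapping groups: the highest TDP-43 library was at 1.44% and the lowest m6A library at 2.32%. In the R6/2 striatum the shares were 1.63% ± 0.607 and 2.72% ± 0.0912 (difference -1.09, exact p = 0.00122, adjusted p = 0.00279), and here the groups overlapped, since TDP-43 reached 2.64%. In the NT striatum they were 0.997% ± 0.335 and 2.66% ± 0.312 (difference -1.66, exact p = 0.000408) without overlap. The p of 0.000408 is the smallest that 4900 labelings within sex allow.

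The share on protein-coding exons was 92.2% to 96.9% of enriched clusters in TDP-43 libraries and 92.7% to 95.4% in m6A libraries. Before any threshold, 1.11% to 1.81% of listed TDP-43 clusters and 3.00% to 3.53% of listed m6A clusters were on lncRNA exons, so the order of the assays was the same. At a stricter p of 1e-10, the difference was -0.0385 percentage points in the R6/2 cortex (exact p = 0.842) and 1.33 in the R6/2 striatum (exact p = 0.0710), where the direction turned.

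**Figure D1:**
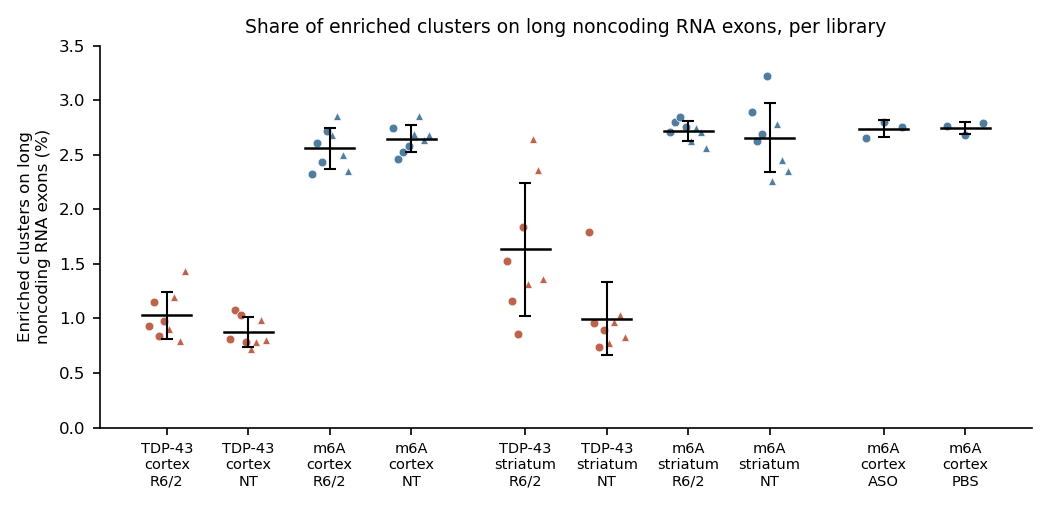
Share of each library's enriched clusters that lay on lncRNA exons (vertical axis, percent), by assay, region and genotype or treatment; circles are males, triangles females, lines means and bars SD. The m6A libraries of R6/2 and NT mice sit between 2.26% and 3.22%, above all but the highest TDP-43 striatum libraries from R6/2 mice, which reach 2.64%.

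A handful of lncRNAs took most of the TDP-43 clusters, whereas m6A clusters were spread widely. A TDP-43 library had enriched clusters on 18 to 88 lncRNA genes (median 49), against 496 to 777 (median 591.5) in an m6A library. Over the 16 libraries of a region, 144 lncRNA genes in the cortex and 80 in the striatum ever held an enriched TDP-43 cluster, against 1016 and 1143 for m6A. The number of genes that together held 50% of a library's lncRNA clusters was 3 to 11 for TDP-43 and 80 to 141 for m6A. The leading 5 genes took 42.1% of TDP-43 lncRNA clusters in the cortex and 51.1% in the striatum, against 11.3% and 10.1% of m6A lncRNA clusters. The assays differ in yield, and the part of yield in these numbers was not tested.

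For TDP-43, 1700020I14Rik (Oip5os1 or Cyrano, known for a conserved microRNA-7 site) led in both regions with 40.3 ± 4.48 enriched clusters per cortex library (range 29 to 47, SD, n = 16) and 27.3 ± 6.74 per striatum library (16 to 38). It made up 12.9% and 14.4% of the lncRNA clusters. In the cortex Peg13 followed with 27.4 ± 2.68 (22 to 33), then Meg3 with 26.9 ± 14.7 (6 to 65), Rian with 20.4 ± 8.56 (10 to 41) and the nuclear speckle RNA Malat1 with 17.1 ± 17.3 (0 to 67). Peg13 varied little between libraries, Meg3 and Malat1 very much, and the 5 genes overlapped in range. The other members of the cortex list were Miat, Rab10os, 2900097C17Rik (Norad, known in human cells to bind Pumilio proteins), Gm2415 and Dbpht2, with means of 8.56 to 15.8. In the striatum, Gas5 and A230006K03Rik entered the first 10 in place of Miat and Dbpht2.

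For m6A, Peg13 led with 81.3 ± 13.8 enriched clusters per cortex library (60 to 107) and 74.9 ± 7.56 per striatum library (64 to 91), above the range of every other lncRNA. That was 17.2 clusters per kilobase of exon in the cortex, against 5.79 per kilobase for TDP-43 on the same gene. Many of these lay close together: over 32 libraries, 930 m6A clusters overlapped the 885-base Peg13 site above. Counted as sites, Peg13 had 14 for m6A and 23 for TDP-43 in the cortex, and 16 and 23 in the striatum. Malat1 had 30.8 ± 6.96 in the cortex, Meg3 30.1 ± 4.21 and Tug1, a gene known for roles in chromatin regulation and male fertility, 29.6 ± 6.81. These 3 genes overlapped and had no order beyond their spread. Some m6A genes were regional: Six3os1, antisense to the forebrain transcription factor gene Six3, had 16.7 ± 2.91 clusters in the striatum and 0 to 3 in any R6/2 or NT cortex library, while 9130024F11Rik had 12.2 ± 2.71 in the cortex and 0 to 4 in the striatum. 2810468N07Rik (Cerox1, known as a regulator of mitochondrial complex I) was the densest after Peg13 among the 10 leading striatum genes, with 17 ± 3.78 clusters or 8.004 per kilobase.

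**Figure D2:**
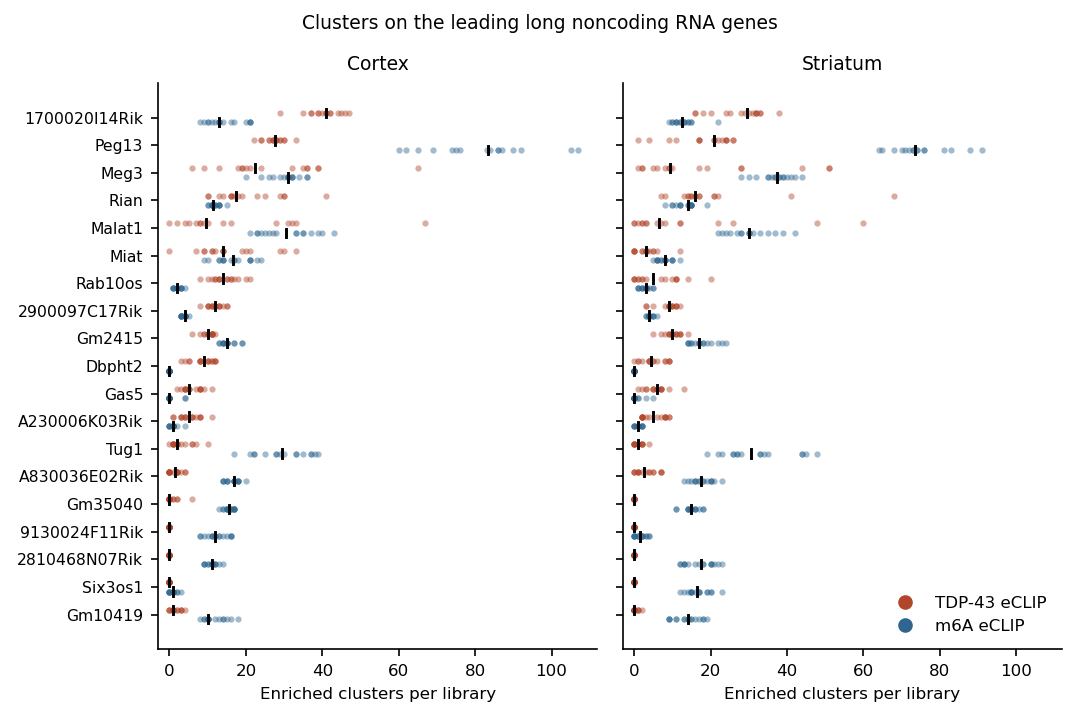
Enriched clusters per library (horizontal axis) on 19 leading lncRNA genes in the cortex and striatum, with TDP-43 libraries drawn above m6A libraries for each gene and a black tick at each median. 1700020I14Rik leads for TDP-43 with 29 to 47 clusters per cortex library, and Peg13 leads for m6A with 60 to 107.

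Which lncRNAs carried relatively more TDP-43 clusters was tested with limma on log2 of the normalized clusters per gene. Clusters were divided by a library factor set by the genes that held clusters in all libraries compared, 2057 in the cortex and 857 in the striatum, so a value of 0 means the same change as in those genes. Of 148 lncRNA genes tested in the cortex, 144 passed an adjusted p of 0.05, against 92.8% of all genes tested. There 11 were higher for TDP-43 (17.2% of all genes) and 133 lower (75.6% of all genes). In the striatum 161 of 163 passed, against 95.1% of all genes, with 8 higher (7.45% of all genes) and 153 lower (87.6% of all genes). A gene was tested if 50% of the libraries had 2 or more clusters, and one that met this through the libraries of 1 group, with fewer than 25% of the other group's libraries at 2 or more, had to differ. That was so for 5 of the 11 higher and 116 of the 133 lower lncRNAs in the cortex, and for 2 of the 8 higher and 143 of the 153 lower in the striatum, so these counts describe the filter as much as the genes. For such genes, here and in the comparisons below, values are given as a description, without a p. Genes at exactly 25% of the other group's libraries count as met through both. Where 1 group was enough for the filter at that limit, this is said below, and the values are a description. Of the 27 and 18 lncRNAs that met the filter through both assays, 23 passed in the cortex (6 higher, 17 lower) and 16 in the striatum (6 higher, 10 lower). The share over all genes that met it through both assays was not computed, so these counts too are a description.

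The lncRNAs that were higher for TDP-43 in both regions included 3 of the genes above. 1700020I14Rik had 29, 41 and 47 clusters (lowest, median, highest) in TDP-43 cortex libraries and 8, 13 and 21 in m6A cortex libraries, without overlap, and was 1.57 ± 0.11 higher on the log2 scale (SE, limma adjusted p = 1.97e-15). In the striatum its difference was 1.51 ± 0.10 (adjusted p = 4.1e-15). 2900097C17Rik was higher by 1.61 ± 0.11 in the cortex (adjusted p = 2.56e-15) and 1.33 ± 0.12 in the striatum (adjusted p = 1.89e-12). Gas5, a small nucleolar RNA host that accumulates in growth arrest, had 2 to 11 TDP-43 clusters in the cortex and 0 to 4 m6A clusters, and met the filter through TDP-43 alone, with 2 or more clusters in all 16 TDP-43 libraries and in 2 of 16 m6A libraries. Its m6A clusters came from R6/2 males 1 and 3, and the other R6/2 and NT cortex libraries had 0. A230006K03Rik, which lies at the Prader-Willi and Angelman locus near Snhg14, was 2.26 ± 0.29 higher in the striatum (adjusted p = 1.55e-08), and in the cortex it met the filter through TDP-43 alone.

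Other lncRNAs higher for TDP-43 were Rian (0.72 ± 0.15 in the cortex, 0.87 ± 0.21 in the striatum), Lncppara and B230209E15Rik. Rab10os was higher in the cortex by 2.58 ± 0.18 (adjusted p = 3.23e-15). Gm17494 and Gm42418, which RefSeq lists as an 18S ribosomal RNA pseudogene, met the filter in the cortex through TDP-43 alone, with 2 or more clusters in 16 and 15 TDP-43 libraries and in 0 and 1 m6A libraries. Dbpht2 had 3 to 12 TDP-43 clusters per cortex library and 0 in all 32 m6A libraries of R6/2 and NT mice, so no fold is given. RefSeq places 21.8% of the Dbpht2 clusters in exons of a messenger RNA. Over all listed clusters the direction turned for 2900097C17Rik (-0.10 and -0.16) and Gm17494 (-0.99 and -0.95) in the cortex and striatum, and for B230209E15Rik (-0.43) and Gas5 (-0.09) in the striatum. Rian turned in the striatum at a p of 1e-10 or less (-1.17).

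Peg13 was lower for TDP-43, with 22, 27.5 and 33 clusters in TDP-43 cortex libraries and 60, 83.5 and 107 in m6A cortex libraries, a log2 difference of -1.49 ± 0.09 (adjusted p = 2.15e-16) and no overlap. Malat1 had a log2 difference of -1.44 ± 0.45 in the cortex (limma adjusted p = 0.00354), with libraries that overlapped. Counted as sites, the order in the cortex was the other way for both genes. Peg13 had 23 TDP-43 and 14 m6A sites, and Malat1 18 and 11. Neat1, the scaffold of paraspeckles, had 0 to 3 TDP-43 clusters and 3 to 12 m6A clusters in the cortex, and met the filter through m6A alone. Tug1 had 0 to 4 and 19 to 48 in the striatum (difference -4.51 ± 0.27, adjusted p = 8.52e-17). Kcnq1ot1, the imprinted antisense RNA of Kcnq1, had no TDP-43 cluster in 32 libraries and 3 to 9 m6A clusters. Miat (-0.31, adjusted p = 0.363) and Meg3 (-0.30, adjusted p = 0.219) did not pass in the cortex.

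By list, of 10 nuclear-retained RNAs, 8 were tested in each region, with 1 higher for TDP-43 (Rian) and 4 lower in the cortex, and 1 higher and 7 lower in the striatum. Their median differences were -0.98 and -1.82 log2 units, against -2.38 and -2.96 over all genes tested. Of 9 imprinted RNAs, 5 were tested, with 1 higher and 2 lower in the cortex and 1 higher and 4 lower in the striatum. Over all genes tested 17.2% were higher and 75.6% lower in the cortex, and 7.45% and 87.6% in the striatum, which is the share to read these and the next counts against. Of 15 small nucleolar RNA hosts only Gas5 and Snhg14 were tested: Gas5 was higher in both regions, and Snhg14 lower in the striatum. Of 11 microRNA hosts, 4 were tested in the cortex and 3 in the striatum, and 3 were lower in each region. Of 291 genes with antisense-style symbols, 6 were tested in the cortex (1 higher, Rab10os, and 5 lower) and 10 in the striatum (9 lower). For some members the filter fixed the direction, so these counts describe the filter in part. Gas5 met it through TDP-43 alone in both regions. Kcnq1ot1, Neat1, Mir9-3hg, Mir22hg and Dlx6os1 met it through m6A alone in both regions, and Snhg14 and Six3os1 in the striatum. Medians of the microRNA host and antisense-style lists are not given, since most members had no TDP-43 cluster.

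Among the RNAs known by name, H19, Nespas and Mir155hg had no enriched cluster in any library of R6/2 or NT mice, and neither did Airn, the imprinted antisense RNA of Igf2r. Mir9-3hg, Dleu2, Dlx1as and Pantr1 had m6A clusters in every region and none for TDP-43. Rmst went the other way, with 0 to 3 TDP-43 clusters per library and no m6A cluster in R6/2 or NT mice. Dlx6os1, antisense in the Dlx5 and Dlx6 locus of GABAergic neurons, had 3 to 10 m6A clusters per library and at most 1 TDP-43 cluster.

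UGUGU was more frequent in TDP-43 clusters and GGACU in m6A clusters on lncRNA exons. In the R6/2 cortex, 14.2% ± 2.53 of TDP-43 clusters and 10.3% ± 0.520 of m6A clusters held UGUGU on the transcribed strand (SD, n = 8 each). In the NT cortex these were 14.8% ± 1.29 and 10.4% ± 1.04. In the R6/2 striatum they were 14.3% ± 2.43 and 10.7% ± 0.881, and in the NT striatum 13.99% ± 2.16 and 10.5% ± 0.778. All 4 differences passed (exact permutation p = 0.000408, adjusted p = 0.000984). The groups did not overlap in the cortex and overlapped in the striatum. Over all listed clusters the order turned, with differences of -0.888 to -2.57 percentage points.

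GGACU was in 5.41% ± 0.954 of TDP-43 clusters and 23.95% ± 0.670 of m6A clusters in the R6/2 cortex, and in 5.58% ± 0.789 and 24.6% ± 1.19 in the NT cortex. In the striatum it was in 3.65% ± 1.76 and 23.9% ± 2.00 in R6/2 mice, and in 4.76% ± 1.56 and 23.3% ± 1.37 in NT mice (exact permutation p = 0.000408, adjusted p = 0.000984, n = 8 each). The groups were far apart in all 4 comparisons. Cluster length matters for such shares, since the median m6A cluster was longer: 47.2 bases for TDP-43 and 90.5 for m6A over the libraries. In windows of 51 bases centred on each cluster, UGUGU was in 10.6% to 20.8% of TDP-43 clusters and 5.24% to 7.42% of m6A clusters, against 7.53% of 8370607 such windows in lncRNA exons. GGACU was in 2.45% to 10.5% of TDP-43 windows and 13.3% to 17.4% of m6A windows, against 4.88% of all windows. Both motifs were searched as these letters on the transcribed strand alone, and a match is not evidence of a bound or methylated site.

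The motifs were also more frequent on lncRNA exons than on protein-coding exons of the same libraries. In TDP-43 libraries UGUGU was in 14.2% of lncRNA and 7.25% of protein-coding clusters in the R6/2 cortex, 14.8% and 8.06% in the NT cortex, 14.3% and 6.96% in the R6/2 striatum, and 13.99% and 8.15% in the NT striatum. In m6A libraries GGACU was in 23.95% and 17.9% in the R6/2 cortex, 24.6% and 18.8% in the NT cortex, 23.9% and 17.7% in the R6/2 striatum, and 23.3% and 17.5% in the NT striatum. The lncRNA share was the higher in 8 of 8 libraries of all 8 groups (exact sign-flip permutation test, two-sided p = 0.0078125, the smallest that 8 libraries allow, adjusted p = 0.0110). In the windows of 51 bases the GGACU shares of m6A libraries lay closer together, at 15.05% in lncRNA and 12.9% in protein-coding clusters of the R6/2 cortex, 15.5% and 13.4% of the NT cortex, 14.8% and 12.9% of the R6/2 striatum, and 14.8% and 13.0% of the NT striatum. The differences there were 2.13, 2.06, 1.94 and 1.81 percentage points, against 6.06, 5.74, 6.13 and 5.80 over whole clusters, while those of UGUGU in TDP-43 libraries were 7.47 to 10.6 in windows and 5.84 to 7.39 over whole clusters (exact sign-flip p = 0.0078125 in all 8 groups).

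**Figure D3:**
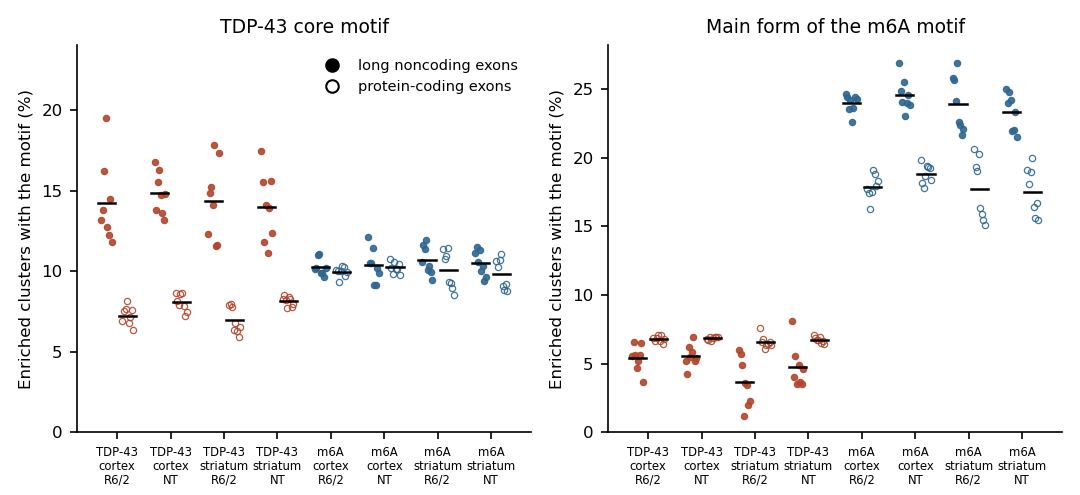
Share of enriched clusters with UGUGU (left) and GGACU (right) in each library (percent), filled symbols for lncRNA exons and open symbols for protein-coding exons, lines at means. GGACU in lncRNA clusters lies between 21.5% and 26.9% in m6A libraries and between 1.23% and 8.14% in TDP-43 libraries of R6/2 and NT mice.

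Enriched TDP-43 clusters lay in longer exons. The median lncRNA exon under a TDP-43 cluster was 4221 ± 695 bases in the R6/2 cortex, against 1969 ± 48.5 bases for m6A. It was 3844 ± 591 and 1903 ± 46.3 in the NT cortex, 3816 ± 1178 and 1872 ± 20.3 in the R6/2 striatum, and 4424 ± 904 and 1909 ± 57.9 in the NT striatum (exact permutation p = 0.000408, adjusted p = 0.000984, n = 8 each, no overlap). Over all listed clusters, before any threshold, the difference was 24.4 bases in the R6/2 cortex (exact permutation p = 0.614), 144 in the NT cortex (exact p = 0.0249), -4.56 in the R6/2 striatum (exact p = 0.960) and 97.25 in the NT striatum (exact p = 0.107). Peg13, among the leading TDP-43 genes, has an exon of 4725 bases. The last exon of the gene held 74.9% of TDP-43 and 83.5% of m6A clusters in the R6/2 cortex (exact p = 0.00245), 76.6% and 84.1% in the NT cortex (exact p = 0.00694), 68.8% and 82.5% in the R6/2 striatum, and 77.3% and 83.4% in the NT striatum (exact p = 0.000408 for both). With the study's added requirement of a log2 fold above 3, the last-exon difference turned in the cortex of both genotypes and in the NT striatum. The relative position along the longest transcript that held the midpoint gave no difference that passed (exact permutation p of 0.447 to 0.953).

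lncRNA exons can overlap other genes. The share of clusters inside an intron of a protein-coding gene on the same strand was 10.4% for TDP-43 and 9.02% for m6A in the R6/2 cortex (exact p = 0.0992), 10.3% and 8.53% in the NT cortex (exact p = 0.00653, adjusted p = 0.0110), 7.66% in both assays in the R6/2 striatum (exact p = 0.999), and 12.5% and 7.63% in the NT striatum (exact p = 0.0265, adjusted p = 0.0351). Clusters antisense to a protein-coding gene were 1.64% to 10.9% of TDP-43 and 17.4% to 20.7% of m6A lncRNA clusters. RefSeq, unlike GENCODE, places 0.4% to 16.8% of TDP-43 and 5.48% to 7.97% of m6A lncRNA clusters in messenger RNA exons. For B230334C09Rik this was 206 of 206, in the postsynaptic density gene Lrrc7. For Trerf1, Sptbn5, Cct6a, Gm37494, 4930458D05Rik and 4930563E22Rik it was also 100%, so their clusters cannot be told apart from those of coding transcripts.

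TDP-43 and m6A sites on lncRNA exons mostly lay apart. In the cortex 308 TDP-43 sites and 1438 m6A sites were found, and 72 of the TDP-43 sites (23.4%) and 55 of the m6A sites (3.82%) overlapped a site of the other assay. In the striatum 40 of 179 TDP-43 sites (22.3%) and 30 of 1631 m6A sites (1.84%) did. Peg13, shown above, is one of the genes with overlapping sites. Both assays had sites in 46 genes in the cortex and 33 in the striatum. With the study's added log2 fold requirement the TDP-43 shares were 12.5% and 16.25%. No expected overlap was computed, so these shares are a description.

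R6/2 and NT mice were compared next. The share of enriched clusters on lncRNA exons was 1.03% ± 0.217 in R6/2 and 0.873% ± 0.137 in NT mice for TDP-43 in the cortex (exact permutation p = 0.120, n = 8 each), 2.56% ± 0.190 and 2.65% ± 0.124 for m6A in the cortex (exact p = 0.282), and 2.72% ± 0.0912 and 2.66% ± 0.312 for m6A in the striatum (exact p = 0.535). None of these 3 differences passed. For TDP-43 in the striatum it was 1.63% ± 0.607 in R6/2 and 0.997% ± 0.335 in NT mice, a difference of 0.636 percentage points (exact p = 0.0249, adjusted p = 0.0340) with overlapping groups. The libraries with the fewest enriched clusters had the higher shares: 1.84% in R6/2 male 4, 2.64% in R6/2 female 2, 2.36% in R6/2 female 3 and 1.79% in NT male 1. Among males without the high-intron R6/2 male 4 the difference was 0.0882 (exact p = 0.771), and over all listed clusters it was 0.0163 (exact p = 0.856). The part of yield and of intron signal was not tested.

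In the striatum, TDP-43 clusters on single lncRNAs differed between the genotypes. Of 23 lncRNA genes tested, 8 passed in limma, against 14% of all 2203 genes tested: 6 were higher in R6/2 mice (6.13% of all genes) and 2 lower (7.9% of all genes). The higher group held Rab10os, A830036E02Rik, A230006K03Rik, Gas5 and the imprinted neighbours Meg3 and Rian. B230334C09Rik and Dbpht2 were lower. A830036E02Rik met the filter through the R6/2 libraries alone, so its direction was fixed by it.

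Rab10os, antisense to the gene of the membrane-traffic GTPase RAB10, had 7, 11 and 20 clusters (lowest, median, highest) in R6/2 striatum and 0, 1 and 3 in NT striatum. The groups did not overlap, in males (8 to 11 and 0 to 1) or in females (7 to 20 and 1 to 3). The log2 difference was 3.44 ± 0.28 (SE, limma adjusted p = 7.7e-07), and it passed in males alone (3.98, adjusted p = 0.0122), in females alone (2.90, adjusted p = 0.000653) and without the 5 high-intron libraries (3.96, adjusted p = 0.0023). In the cortex Rab10os had 10, 15 and 20 clusters in R6/2 and 8, 13 and 21 in NT libraries, which overlapped fully. Its m6A clusters numbered 1 to 5 per library in both genotypes and regions. The change with genotype was larger for TDP-43 than for m6A in the striatum, by 3.41 (limma interaction, adjusted p = 2.39e-06). Over all listed clusters the TDP-43 difference was 0.31 and did not pass (adjusted p = 0.0537), and the interaction was 0.0059 (adjusted p = 0.996).

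Nearly all TDP-43 clusters on Rab10os lay in 1 exon, chr12:3238029-3241410: 92 of 92 in R6/2 striatum and 9 of 9 in NT striatum, and 116 of 116 in R6/2 cortex and 113 of 114 in NT cortex. The 200 bases below were chosen after the values were seen, as the window covered most by R6/2 striatum libraries, and are shown because they hold 18 overlapping UGUGU (in capitals, on the plus strand of mm10, within that exon). They were touched by 21 of the 92 clusters (22.8%) in R6/2 striatum and 5 of 9 (55.6%) in NT striatum, and by 17.2% in R6/2 cortex and 18.4% in NT cortex. An enriched TDP-43 cluster touched this window in 8 of 8 R6/2 and 5 of 8 NT striatum libraries. The window was touched in 8 of 8 cortex libraries of each genotype, and in 0 m6A libraries.
Rab10os, TDP-43, chr12:3240296-3240495, plus strand: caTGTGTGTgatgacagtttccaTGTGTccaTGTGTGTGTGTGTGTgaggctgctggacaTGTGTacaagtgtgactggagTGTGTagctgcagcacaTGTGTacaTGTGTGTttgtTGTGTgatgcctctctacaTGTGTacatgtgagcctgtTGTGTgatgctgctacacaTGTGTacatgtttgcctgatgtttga

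**Figure D4:**
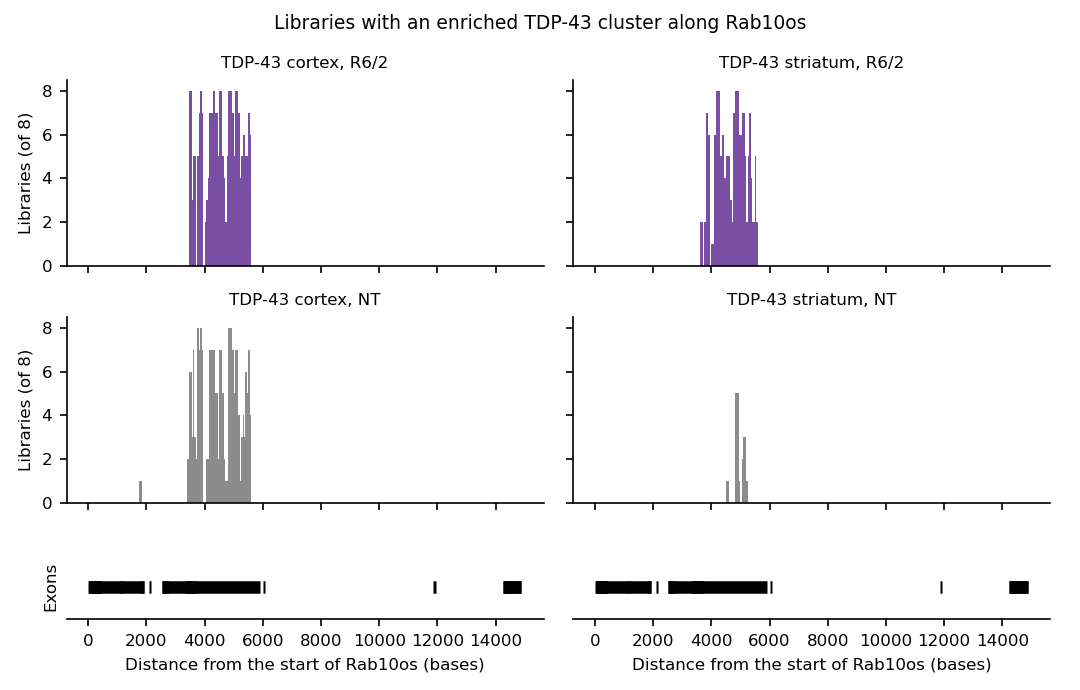
Number of the 8 libraries with an enriched TDP-43 cluster in each 50-base bin along Rab10os (vertical axis) against distance from the gene start (horizontal axis, bases), by region and genotype, with annotated exons drawn below. Over the whole UG-rich 200-base window, 8 of 8 libraries of R6/2 striatum and of each cortex group had a cluster that touched it, and 5 of 8 of NT striatum. That window was chosen as the one covered most in R6/2 striatum.

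A230006K03Rik had 6, 8 and 9 clusters in R6/2 striatum and 2, 2 and 4 in NT striatum, also without overlap, with a log2 difference of 1.74 ± 0.30 (adjusted p = 0.00104). A830036E02Rik had 3, 5 and 7 in R6/2 and 0, 1 and 2 in NT striatum. Meg3 had 9, 28 and 51 in R6/2 and 1, 5.5 and 17 in NT striatum, with overlap (2.45 ± 0.63, adjusted p = 0.0146). Its m6A clusters there were 28 to 44 in R6/2 and 32 to 42 in NT mice, and the groups overlapped. The difference between assays passed for A830036E02Rik (interaction 2.47, adjusted p = 0.00193, in a fit whose filter spans both assays), Meg3 (2.46, adjusted p = 0.0411) and A230006K03Rik (1.80, adjusted p = 0.0363). Without the 5 high-intron libraries the interaction was 1.87 for A830036E02Rik (adjusted p = 0.0692), 1.81 for Meg3 (adjusted p = 0.230) and 0.79 for A230006K03Rik (adjusted p = 0.444), so none of the 3 passed.

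Gas5 had 5, 7 and 13 clusters in R6/2 and 1, 4 and 6 in NT striatum (1.19 ± 0.28, adjusted p = 0.00825). Rian had 15, 21 and 68 in R6/2 and 7, 14 and 16 in NT striatum (1.13 ± 0.33, adjusted p = 0.0268), and its highest values were those of R6/2 males 1 and 2, at 68 and 41. Both genes overlapped between genotypes. B230334C09Rik, whose clusters lie in Lrrc7 exons of RefSeq, had 0, 1 and 3 in R6/2 and 2, 7.5 and 12 in NT striatum (-2.56 ± 0.40, adjusted p = 0.000577). Dbpht2 had 0, 3 and 8 in R6/2 and 4, 7 and 9 in NT striatum (-1.25 ± 0.38, adjusted p = 0.0361).

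These calls rested in part on the libraries that stood apart and on the threshold: with the study's added log2 fold above 3, 14 lncRNAs were tested and 1 passed. Without the 5 high-intron libraries, all 3 remaining R6/2 libraries were male, and Rab10os and B230334C09Rik (-1.37, adjusted p = 0.0403) passed. Meg3 was at 1.87 (adjusted p = 0.332), Rian at 1.42 (adjusted p = 0.239), A230006K03Rik at 0.85 (adjusted p = 0.286), Gas5 at 0.57 (adjusted p = 0.399) and Dbpht2 at -0.53 (adjusted p = 0.347), while A830036E02Rik was not tested for lack of clusters. Rian missed the threshold without any 1 of R6/2 male 1 (adjusted p = 0.0508), R6/2 female 3 (0.0520), NT male 3 (0.0543), NT male 4 (0.0563) or NT female 1 (0.0510), and Dbpht2 without any 1 of 8 libraries (up to adjusted p = 0.0813, without R6/2 male 4). Over the same libraries, 9 markers of medium spiny neurons summed to 20 to 55 clusters in R6/2 striatum and 52 to 127 in NT striatum (8 of 9 detected, Tac1 at 0), 4 microglial markers were at 0, and their part in these results was not tested.

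In the cortex, TDP-43 clusters on lncRNAs gave no call between genotypes: 0 of 38 genes passed in limma, against 7.37% of all genes tested, and 11 of 38 had an unadjusted p under 0.05. No other tool was run. Gm7292 had the lowest adjusted p (-1.32 ± 0.42, adjusted p = 0.0638). Next came A230006K03Rik, with 3, 6.5 and 11 clusters in R6/2 and 1, 3.5 and 8 in NT cortex (1.13 ± 0.38, adjusted p = 0.0800), and Mirg, with 1, 2 and 6 in R6/2 and 0, 1 and 2 in NT cortex (1.33 ± 0.45, adjusted p = 0.0862). A230006K03Rik and Mirg overlapped between genotypes. In the interaction of genotype and assay, 3 of 148 lncRNAs passed in the cortex, against 1.82% of all genes, and 15 of 163 in the striatum, against 4.08%. Apart from the 4 genes named above, those lncRNAs had no TDP-43 cluster in any library of their region, so the interaction is their m6A difference alone.

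**Figure D5:**
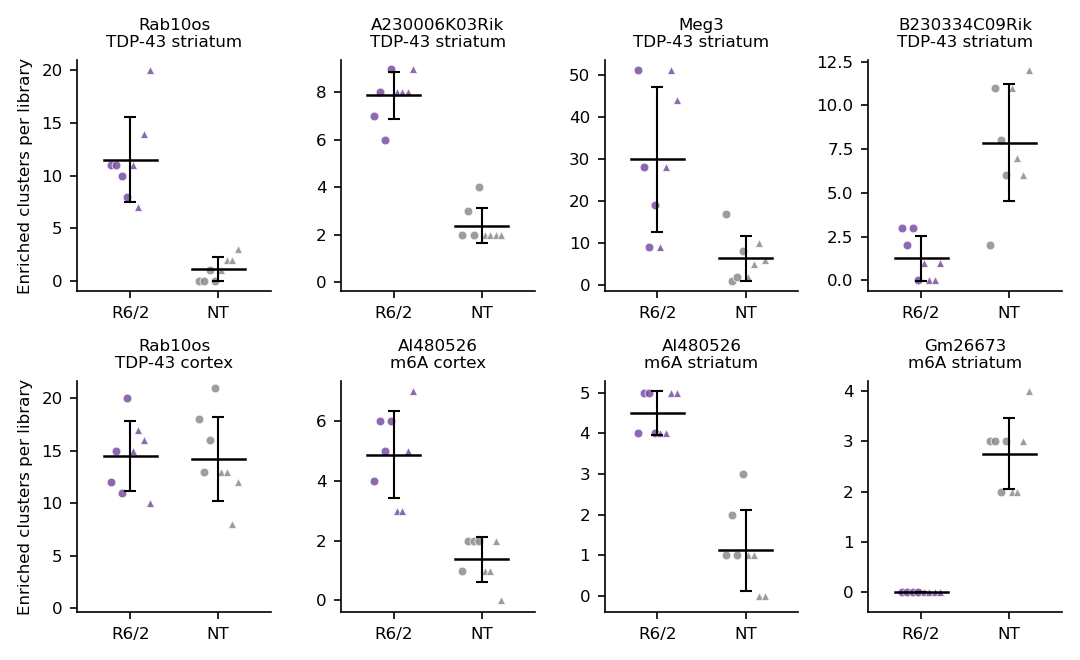
Enriched clusters per library (vertical axis) in R6/2 and NT mice for 8 gene, assay and region combinations, circles for males and triangles for females, with mean ± SD (n = 8 each). Rab10os in TDP-43 striatum is separated, 7 to 20 against 0 to 3, and overlaps in TDP-43 cortex, 10 to 20 against 8 to 21.

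m6A clusters on lncRNAs differed between genotypes in both regions. In the cortex 34 of 310 lncRNAs passed, against 6.09% of all genes tested: 10 were higher in R6/2 mice (2.41% of all genes) and 24 lower (3.68% of all genes). In the striatum 54 of 351 passed, against 9.44% of all genes, with 25 higher (3.64%) and 29 lower (5.79%). Of these, 2 higher and 7 lower lncRNAs in the cortex and 2 higher and 6 lower in the striatum met the filter through 1 genotype alone, so their direction was fixed by it. Without them 8 higher and 17 lower lncRNAs remained in the cortex and 23 and 23 in the striatum. Those that remained include genes at the 25% limit, and the matching share over all genes was not computed. The lncRNA median difference was close to 0 in both regions, -0.0032 and 0.056 log2 units, against 0.021 and 0.016 over all genes. With the study's added log2 fold above 3, 72 and 66 lncRNAs were tested and 0 passed in limma.

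Several lncRNAs had no enriched m6A cluster in R6/2 libraries, though listed clusters remained on some of them. All 5 met the filter through the NT libraries alone, so that R6/2 mice had to be lower. 5330416C01Rik had 0 in all 8 R6/2 cortex libraries and 2, 3.5 and 5 in NT cortex, and over all listed clusters 2, 4 and 7 in R6/2 and 4, 5.5 and 9 in NT cortex (-0.46, limma adjusted p = 0.221). 5330413P13Rik had 0 in R6/2 and 2, 2 and 3 in NT cortex, and 3, 5 and 8 listed clusters in R6/2 and 4, 5.5 and 7 in NT cortex (-0.17, adjusted p = 0.704). The listed clusters of these 2 genes thus overlapped between genotypes. In the striatum Gm26673 had 0 in R6/2 and 2, 3 and 4 in NT mice, and 2, 4.5 and 5 listed clusters in R6/2 and 5, 6 and 7 in NT mice (-0.58, adjusted p = 0.0525). 9230009I02Rik had 0 in R6/2 and 2, 4 and 4 in NT striatum, and 0, 1 and 2 listed clusters in R6/2 and 3, 4 and 5 in NT striatum (-2.02, adjusted p = 0.000326). Gm49304 had 0 in R6/2 and 2, 2.5 and 6 in NT striatum. Its listed clusters were 0, 0 and 1 in R6/2 and 2, 3 and 6 in NT striatum (-2.52). No R6/2 library reached 2 listed clusters on Gm49304, so there too it met the filter through NT alone and had to be lower. The listed clusters of these last 2 genes did not overlap between genotypes.

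Others were lower without reaching 0 in every library, and most of these too met the filter through NT libraries alone. Gm15721 had 0, 0 and 1 in R6/2 and 2, 4 and 4 in NT cortex, and 0, 0 and 2 in R6/2 and 2, 3 and 4 in NT striatum. Gm26673 had 0, 0.5 and 1 in R6/2 and 2, 3 and 5 in NT cortex, and A930002C04Rik 0, 0 and 1 in R6/2 and 2, 4 and 6 in NT striatum. Gm35161, 5930412G12Rik (the antisense partner of Fzd10) and Sptbn5 had at most 1 R6/2 cortex library with 2 or more clusters. Of those that met the filter through both genotypes, Gm10432 fell in the cortex (-1.35), and Sptbn5 (-2.33), A330094K24Rik (-1.53) and Gm38101 (-1.34) fell in the striatum.

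Among the lncRNAs with more m6A clusters in R6/2 mice, AI480526 rose in both regions. It had 3, 5 and 7 clusters in R6/2 and 0, 1.5 and 2 in NT cortex (1.52 ± 0.27, adjusted p = 0.00117), without overlap, and 4, 4.5 and 5 in R6/2 and 0, 1 and 3 in NT striatum (1.84 ± 0.27, adjusted p = 7.24e-05), again without overlap. RefSeq places 46.8% of its clusters in exons of a messenger RNA. Mir124a-1hg, a host of the neuronal microRNA miR-124, rose in the striatum (0.87 ± 0.26, adjusted p = 0.0346). In the cortex it had 2, 3 and 4 in R6/2 and 0, 1 and 2 in NT mice and met the filter through R6/2 alone, and over all listed clusters its direction turned there (-0.21, adjusted p = 0.226). Phf2os1 had 2, 3 and 4 in R6/2 and exactly 1 in every NT cortex library, and also met the filter through R6/2 alone. 9530080O11Rik rose in the cortex (1.05 ± 0.28, adjusted p = 0.025) and striatum (1.597 ± 0.30, adjusted p = 0.000952).

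Gm20628 rose in the cortex (1.52 ± 0.44, adjusted p = 0.0406) and striatum (2.23 ± 0.38, adjusted p = 0.000338), but its cortex call was lost without NT male 1 (1.30, adjusted p = 0.0708), NT male 2 (1.29, 0.0739), NT female 1 (0.0744) or NT female 2 (0.0762). A330102I10Rik (1.27), 4930563E22Rik (0.88) and Mir22hg (0.44) were the other named rises in the cortex. A330102I10Rik missed the threshold without R6/2 female 3 (adjusted p = 0.0523) or female 4 (0.0570), 9530080O11Rik in the cortex without R6/2 male 3 (0.0545), and Mir22hg without any 1 of 12 libraries (adjusted p = 0.0556 to 0.0821). In the striatum AC114539.1 (1.89), 4930458D05Rik (1.10) and 9330188P03Rik (1.09) rose as well, while Gm5577 and 4930513N10Rik met the filter through R6/2 alone, with 1 NT library each at 2 or more. The well-known RNAs changed little: Tug1 rose by 0.41 ± 0.08 in the cortex (adjusted p = 0.00171) and Malat1 fell by 0.33 ± 0.08 in the striatum (adjusted p = 0.00596), while Peg13 had 69 to 107 clusters in R6/2 and 60 to 92 in NT cortex without a call.

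By list, no nuclear-retained or imprinted RNA was called for m6A in the cortex, and Malat1 alone was lower in the striatum, where 8 and 5 were tested. Over all genes tested 6.09% were called for m6A in the cortex and 9.44% in the striatum, and 7.37% and 14% for TDP-43. The nuclear list's medians were 0.031 and -0.0079 log2 units, and the imprinted list's 0.040 and 0.0067. For TDP-43 the nuclear list's medians were 0.68 in the cortex (7 tested, 0 called) and 1.53 in the striatum (5 tested, Meg3 and Rian higher), and the imprinted list's 0.68 (5 tested, 0 called) and 1.13 (3 tested, the same 2 higher), against -0.086 and -0.044 over all genes. Of the small nucleolar RNA hosts, Gas5 alone was called, for TDP-43 in the striatum (2 tested there, 3 in the TDP-43 cortex and 1 in each m6A region). MicroRNA hosts had 0 called of 2 in the TDP-43 cortex and none tested in the TDP-43 striatum. They had 2 higher for m6A in the cortex (Mir22hg and Mir124a-1hg, median 0.24 over 4 tested) and 1 in the striatum (median 0.17). Antisense-style genes had 0 called of 2 for TDP-43 in the cortex and Rab10os alone tested and higher in the striatum. For m6A they had 2 higher and 1 lower of 13 in the cortex (median 0.18) and 3 higher and 1 lower of 17 in the striatum (median 0.22). In the m6A cortex, Mir124a-1hg and the antisense-style gene Phf2os1 met the filter through R6/2 alone, so their direction was fixed by it. Over the same m6A libraries the medium spiny markers summed to 36 to 49 clusters in R6/2 and 53 to 64 in NT cortex, and to 95 to 143 in R6/2 and 150 to 219 in NT striatum (all 9 detected, but Rgs9 at 0 in the R6/2 cortex). Their part in these results was not tested.

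The antisense experiment asked how m6A changes when TDP-43 is lowered. m6A clusters on Tardbp, the gene of TDP-43, numbered 7, 8 and 9 in ASO and 18, 17 and 25 in PBS libraries, without overlap. These 6 files differ from the rest in how clusters were called: 97.3% to 97.7% of listed intervals were identical between mice of one treatment, against 0.296% to 0.317% between treatments and 0.1002% to 0.489% between mice of 1 sex of any other group. Each treatment thus has in effect 1 set of intervals, and the spread between its mice leaves out the variation of cluster calling. Treatment and interval set cannot be told apart, and adjusted p-values below are too small for that reason.

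The share of enriched m6A clusters on lncRNA exons was 2.74% ± 0.0744 in ASO and 2.74% ± 0.0552 in PBS mice (difference -0.00513 percentage points, exact permutation p = 0.9, n = 3 each, where 0.1 is the smallest p possible). By gene, 89 of 406 lncRNAs passed in limma, against 30.8% of all genes tested: 31 were higher with ASO (13.6% of all genes) and 58 lower (17.2% of all genes). Of these, 6 higher and 13 lower met the filter through 1 treatment alone, so their direction was fixed by it. Peg13 had 107 to 108 clusters with ASO and 119 to 120 with PBS and Malat1 24 to 26 and 28 to 36, and neither was called (-0.01 and -0.17).

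Among those lower with ASO, 4933439C10Rik had 4, 5 and 4 clusters in ASO and 11, 11 and 13 in PBS mice (-1.20 ± 0.10, adjusted p = 0.00141). Kcnq1ot1 had 2, 2 and 2 in ASO and 4 to 5 in PBS mice (-0.82 ± 0.11, adjusted p = 0.00447). Rian had 22, 22 and 22 in ASO and 30 to 32 in PBS mice (-0.33 ± 0.03, adjusted p = 0.00145). None of these 3 genes overlapped between treatments. Mice of 1 treatment shared nearly all intervals, so this leaves out the variation of cluster calling, and the share over all genes is not given here. Phf2os1, with 1 in each ASO and 3 in each PBS mouse, met the filter through PBS alone. Cct6a, a chaperonin subunit gene whose clusters here lie in RefSeq messenger RNA exons, had 0, 0 and 1 in ASO and 3, 2 and 7 in PBS mice and met the filter through PBS alone, as did 2810002D19Rik and AC142100.3. The calls of Gm4876, 4933412E12Rik and AC132106.1 were each lost when any 1 of 3 or more libraries was left out.

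Among those higher with ASO, Gm16168 had 4 in each ASO and 1, 0 and 1 in PBS mice and met the filter through ASO alone. AC102342.2 had 8 to 9 in ASO and 4 in each PBS mouse (1.10 ± 0.08, adjusted p = 0.00129). Mir9-3hg, a host of the neural microRNA miR-9, had 10 in each ASO and 5 to 7 in PBS mice (0.92 ± 0.11, adjusted p = 0.00325). Neat1 had 17, 18 and 17 in ASO and 15, 15 and 16 in PBS mice (0.31 ± 0.03, adjusted p = 0.00289). None of the 4 overlapped, with the same limit from the shared intervals. The call of AC174800.1 (1.04) was lost without any 1 of ASO mouse 2 or 3 or PBS mouse 2 or 3 (adjusted p = 0.113 to 0.135), that of Gm19531 (0.85) without any 1 of ASO mice 1 to 3 or PBS mouse 3 (adjusted p = 0.0564 to 0.0916), and that of Trerf1 (0.92) without PBS mouse 3 (adjusted p = 0.0538). Over the lists, 1 nuclear RNA was higher and 2 lower of 8 tested (median -0.034 log2 units). Of imprinted RNAs, 2 were lower of 5 (median -0.0075), and of microRNA hosts 1 was higher of 4 (median 0.071). Of small nucleolar RNA hosts, 0 were called of 1. Antisense-style genes had 1 higher and 2 lower of 21 (median -0.093), and Phf2os1 among the lower met the filter through PBS alone. Over all genes the median was -0.020, with 13.6% higher and 17.2% lower.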

How the data were processed

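Clusters were called by the authors with a commercial eCLIP workflow built on CLIPper, on the mm10 build, 1 set per immunoprecipitated library. The aligner is not given in the sources used here. Each deposited cluster carries a −log10 p and a log2 fold of immunoprecipitate over input. Clusters were assigned by their midpoint and strand to GENCODE M21 exons, and names were checked against RefSeq GRCm38.p6. A cluster with p of 0.001 or less was called enriched. The study compared male and female samples to find reproducible peaks, and also required a log fold above 3. That fold was run as an alternative in each library, without the reproducibility step. The study's thresholds in this text mean that alternative, not the study's own peak set. Shares were compared by exact permutation within sex. Enriched exon clusters per gene were divided by median-ratio library factors, 0.5 was added, and log2 values were fitted with limma 3.58.1 (lmFit, eBayes with trend; R 4.3.3) over all genes with at least 2 enriched clusters in 50% of libraries, adjusted by Benjamini-Hochberg over all genes tested. Which genes met that filter through 1 group alone was looked up after the results were seen. The fit was tested on simulated data. The input libraries and the reads were not used here. Named genes were a list of known lncRNAs, the 10 highest means per assay and region, and per comparison the 8 highest and 8 lowest called with a mean of at least 2 and the same sign in both sexes. Rab10os's window, Gm7292 and the genes in the text outside that rule were added after their values were seen. The lists were nuclear-retained, imprinted, small nucleolar RNA host, microRNA host and antisense-symbol genes. Members and lists were chosen with earlier results of these data known. Each library is 1 mouse. The sequence of 1 further TDP-43 site is not reported here.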

Additional observations from a re-analysis of the deposited data

Results flagged for a closer look

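In 136 groups of 8 libraries examined, 14 had 1 library set far from the other 7, where chance gives about 1 in 20. TDP-43 striatum NT male 1, which had the fewest enriched clusters, accounted for 7 of them: its lncRNA share was 1.79% (next library 1.03%), GGACU share 8.14% (5.59%), median exon length 2193 bases (4658), last-exon share 61.6% (77.0%), protein-coding intron share 1.16% (10.9%), 16 clusters on 1700020I14Rik (29) and 1 on Peg13 (17). Other libraries that stood apart were TDP-43 cortex NT male 3, with an intron share of 7.34% (next 9.57%), 3 Dbpht2 clusters (8) and 30 Rian clusters (19), and m6A striatum R6/2 male 4, with a median exon length of 1916 bases (1872). TDP-43 cortex R6/2 female 2 had 65 Meg3 clusters (39), R6/2 female 4 had 6 Gm2415 clusters (9), and TDP-43 striatum R6/2 female 2 had 3 clusters on 2900097C17Rik (9).

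The effect of genotype in the striatum differed between TDP-43 and m6A by a limma interaction for Rab10os (3.41), A830036E02Rik (2.47), Meg3 (2.46) and A230006K03Rik (1.80). The Meg3 call was lost in 10 and the A230006K03Rik call in 17 of the 32 fits that left out 1 library.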

How the results depend on the processing

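No read depth is known, and counts of enriched clusters depend on the threshold and the filter. Differences of TDP-43 minus m6A in the share on lncRNA exons at p of 1e-10 or less were -0.0385 in the R6/2 cortex and 1.33 in the R6/2 striatum, and with lincRNA genes alone -0.0698 in the R6/2 striatum. R6/2 minus NT shares were 0.508 at 1e-10 for the TDP-43 cortex, 0.0163 over all listed clusters and 0.0882 in males without the high-intron library for the TDP-43 striatum, and -0.123 over all listed clusters and -0.0725 with lincRNA genes alone for the m6A cortex. Over all listed clusters the UGUGU difference was -1.81 and -0.888 in the R6/2 and NT cortex and -2.57 and -1.98 in the R6/2 and NT striatum. With the study's thresholds it was 3.64 and 1.77 in the R6/2 and NT striatum. Exon length over all listed clusters differed by 24.4 bases in the R6/2 cortex, -4.56 in the R6/2 striatum and 97.25 in the NT striatum. Last-exon differences with the study's thresholds were 0.980 and 0.817 in the R6/2 and NT cortex and -0.747 and 1.79 in the R6/2 and NT striatum. Relative position over all listed clusters differed by -0.0682 and -0.0819 in the R6/2 and NT cortex and -0.0831 and -0.0731 in the R6/2 and NT striatum, with the study's thresholds by -0.0298 and -0.107 in the R6/2 and NT striatum, and without RefSeq messenger RNA exons by -0.0150 in the NT striatum. Protein-coding intron shares in the R6/2 cortex differed by 9.22 with the study's thresholds, 1.41 over all listed clusters, 7.91 without the leading gene, 1.86 without RefSeq messenger RNA exons, and 0.932 to 1.95 leaving out 1 library at a time. In the R6/2 striatum they differed by 6.86, 1.34 and 4.79 under the first 3 of these. The cause of these changes was not tested.

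A setting can also change how many genes are tested. The share of all genes called is not given for the counts here and in the next paragraph. They describe the settings and are not results about lncRNAs. Counts of lncRNA genes called for TDP-43 against m6A were 14 and 10 (cortex, striatum) with the study's thresholds, 574 and 571 over all listed clusters, 60 and 66 at 1e-10 and 578 and 628 with 1 cluster in 25% of libraries. R6/2 against NT gave 5 for the TDP-43 cortex over all listed clusters and 2 with the looser filter. For the TDP-43 striatum it gave 1 with the study's thresholds, 36 over all listed clusters, 2 at 1e-10, 5 with touching clusters merged, 1 in males and 2 without the high-intron libraries. For the m6A cortex and striatum it gave 0 and 0 with the study's thresholds, 18 and 34 at 1e-10, 62 and 91 with the looser filter, 7 and 13 merged, 9 and 21 in males and 10 and 18 in females. ASO against PBS gave 1 with the study's thresholds, 1627 over all listed clusters, 37 at 1e-10 and 25 merged. The interaction gave 0 and 0 (cortex, striatum) with the study's thresholds, 40 and 75 with the looser filter, and in the striatum 9 over all listed clusters, 6 merged and 5 without the high-intron libraries. TDP-43 sites overlapping m6A sites were 12.5% and 16.25% with the study's thresholds. Those thresholds left 11 to 73 lncRNA genes to test.

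Leaving out 1 library at a time gave 41 to 141 and 26 to 162 calls for TDP-43 against m6A (cortex, striatum), 0 to 2, 6 to 10, 22 to 29 and 37 to 51 for R6/2 against NT (TDP-43 cortex, TDP-43 striatum, m6A cortex, m6A striatum), 45 to 71 for ASO and 0 to 6 and 3 to 15 for the interaction. Without 1 m6A library, genes with m6A clusters alone could miss the filter. Same-numbered libraries did not deviate together throughout (correlations of -0.461 to 0.446), so the numbers were not taken to pair mice. With the replicate block the counts were 144 and 161 for TDP-43 against m6A, 0, 9, 33 and 53 for R6/2 against NT, 51 for ASO and 3 and 10 for the interaction.

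Directions of named genes turned over all listed clusters for 2900097C17Rik (-0.0962 in the cortex, -0.160 in the striatum), A330102I10Rik (-0.213), AC154766.4 (-0.652), B230209E15Rik (-0.433, and -0.590 merged), Gas5 in the striatum (-0.0856), Gm17494 (-0.994 and -0.954), Gm37494 (0.00332 and 0.0725), Mir124a-1hg (-0.208) and Trerf1 (-0.186), and for Rian in the striatum with the study's thresholds (-0.00206) and at 1e-10 (-1.17). Of 2418 such fits of 92 named results, 2207 kept direction and side of the threshold, 196 kept direction alone and 15 turned. The 92 results were chosen because they were called, and fits in which a gene missed the filter were not counted. Many fits left out 1 library alone, so these numbers do not measure how stable the calls are.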

Other observations

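The GGACU share of m6A clusters on lncRNA exons also differed by sex, a comparison the study's design was not built on and for which no test was run. In the striatum it was 21.5%, 22.03% and 23.3% (lowest, median, highest of 8) in females and 24.002%, 24.9% and 26.9% in males, without overlap, and in the cortex 22.6%, 23.9% and 24.6% in females and 23.5%, 24.5% and 26.9% in males, with overlap. UGUGU in the same m6A clusters was at 9.37% to 10.4% in females and 10.6% to 11.9% in males of the striatum. Tug1 had 44 to 48 m6A clusters in R6/2 females and 23 to 28 in R6/2 males of the striatum, and 33 to 35 in NT females and 19 to 26 in NT males, so the sexes did not overlap in either genotype. The sexes differed in these values in libraries whose yield also varied, and the part of yield was not tested.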
